A study of Homo sapiens with 24 samples.

Results

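Survival genes of apoptosis, 9 in all, were followed by RNA sequencing in 24 libraries, 12 of MDA-MB-231 cells and 12 of MDA-MB-436 cells, both established from triple-negative breast cancers. They were the survival members of the BCL-2 family (BCL2, BCL2L1, MCL1, BCL2L2 and BCL2A1), the inhibitors of apoptosis XIAP, BIRC2 and BIRC3, and CFLAR, the gene of FLIP. They were taken by name, with earlier results of these data known, and all 9 were found among the 60675 Ensembl genes of the count files. Each line had 4 groups of 3 libraries. One group expressed a non-targeting short hairpin RNA (shRNA), another an shRNA labelled as directed at MDM2, another received DMSO, the solvent, and the last received YX-2-30, an MDM2 PROTAC. MDM2 is a ubiquitin ligase, and a PROTAC is a small molecule that brings its target protein to a ubiquitin ligase for degradation. The design text states that cells with and without loss of MDM2 were compared. All groups were cultured cells grown in DMEM with serum. The hairpin sequences, the dose and the duration are not given in the sources used here, nor is it stated whether replicates were grown as separate cultures, so p-values measure only the spread between these libraries.

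Cells undergo mitochondrial apoptosis when BAX and BAK1 permeabilise the outer mitochondrial membrane, and the survival BCL-2 proteins hold these pore formers and their activators in check. XIAP binds and blocks caspases directly, whereas BIRC2 (cIAP1) and BIRC3 (cIAP2) are ubiquitin ligases of tumour necrosis factor receptor complexes. FLIP resembles caspase-8 without its activity and limits caspase-8 activation at death receptors. BIRC3, BCL2A1 and CFLAR are well-known targets of the transcription factor NF-kB.

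Library depth was 33.4 to 174.7 M counts, median 64.0 M, where M is 1000000 counts. Levels are given as CPM, counts per M of the library size scaled by the TMM method. The 2 lines carried KRT8 and KRT18 at 198 CPM or more in all libraries, whereas CDH1, the epithelial cadherin, reached at most 0.65 CPM and ESR1 and PGR at most 0.52 CPM. Of the leukocyte markers, CD3E was at or near 0, and PTPRC in MDA-MB-231 (2.82 to 5.42 CPM) and CD14 in MDA-MB-436 (4.65 to 14.5 CPM) made up most of that list. Its sum in MDA-MB-436 ran from 7.99 to 14.6 CPM in the control groups and from 4.65 to 7.60 CPM in the treated groups. The epithelial markers summed to 827 to 1142 CPM in the controls of that line and to 409 to 572 CPM in its treated libraries. Those of MDA-MB-231 overlapped (917 to 992 and 901 to 954 CPM). The mesenchymal sum there was 4741 to 6304 CPM in the controls and 2811 to 3142 CPM in the treated libraries. For the other line these were 823 to 1022 and 622 to 775 CPM. The luminal sum was higher in the treated libraries of both lines. Replication histone genes held 0.0720 to 0.0791% of counts in the controls of MDA-MB-231 and 0.0289 to 0.0301% in the treated libraries. In MDA-MB-436 the order was opposite, at 0.0178 to 0.0215% in the controls and 0.0224 to 0.0257% in the treated libraries. Mitochondrial transcripts held 6.78 to 7.26% of counts in the controls of MDA-MB-436 and 5.47 to 5.50% in the treated libraries, whereas those of MDA-MB-231 overlapped (5.43 to 5.92% and 5.40 to 5.65%). The part of these shifts in the members' values was not tested. PROTAC replicate 3 of MDA-MB-436 had the lowest total and the lowest mean correlation with its group, 0.931.

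A fall of MDM2 transcript did not pass the test in any comparison, although with the PROTAC in MDA-MB-436 it did under 3 of 14 alternatives. In MDA-MB-231 it measured 18.1 ± 5.93 CPM (SD, n = 3) with the non-targeting shRNA, between 11.4 and 22.9 in the single libraries, and 24.8, 23.8 and 30.9 CPM in the libraries labelled MDM2 shRNA (log2 change 0.55 ± 0.24 (SE), edgeR adjusted p = 0.137). In MDA-MB-436 the corresponding levels were 21.5, 29.9 and 24.3 CPM and 14.7, 28.0 and 26.8 CPM (-0.11 ± 0.22, adjusted p = 0.780). DMSO and PROTAC libraries measured 17.0, 24.4 and 15.2 CPM and 20.4, 23.4 and 24.1 CPM in MDA-MB-231. The same groups of MDA-MB-436 measured 35.0 ± 5.33 CPM (SD, n = 3), at the lowest 29.4, and 22.8, 25.5 and 20.6 CPM, and these did not overlap. With the PROTAC, which acts on the protein, the log2 changes were 0.26 ± 0.24 in MDA-MB-231 (adjusted p = 0.513) and -0.61 ± 0.22 in MDA-MB-436 (adjusted p = 0.0573). This last p was 0.0236 by DESeq2, 0.0480 with counts divided by 4 and 0.0188 in the edgeR fit of the 6 libraries alone. The hairpin groups are therefore named by their label.

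BIRC3 was the member that rose in all 4 comparisons, and BCL2L1 and MCL1 fell in all 4. BCL2 fell slightly in MDA-MB-231 and rose in MDA-MB-436. CFLAR rose with the hairpin in MDA-MB-436. BCL2L2, XIAP and BIRC2 passed the test in none, and BCL2A1 had too few counts to be tested. In MDA-MB-231, 1 of the 8 tested members rose and 3 fell with either treatment. Of all genes, 11.1% rose and 11.6% fell with the hairpin (22.7% in all), and 11.1% rose and 11.5% fell with the PROTAC (22.6%). In MDA-MB-436, 3 rose and 2 fell with the hairpin, against 16% and 14.4% of all genes (30.4% in all), and 2 rose and 2 fell with the PROTAC, against 17.3% and 15.1% (32.4%). A gene was called at a Benjamini-Hochberg adjusted p under 0.05 in edgeR's quasi-likelihood test over all genes tested, fitted on the 12 libraries of the line with 20675 genes for MDA-MB-231 and 22663 for MDA-MB-436.

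**Figure D1:**
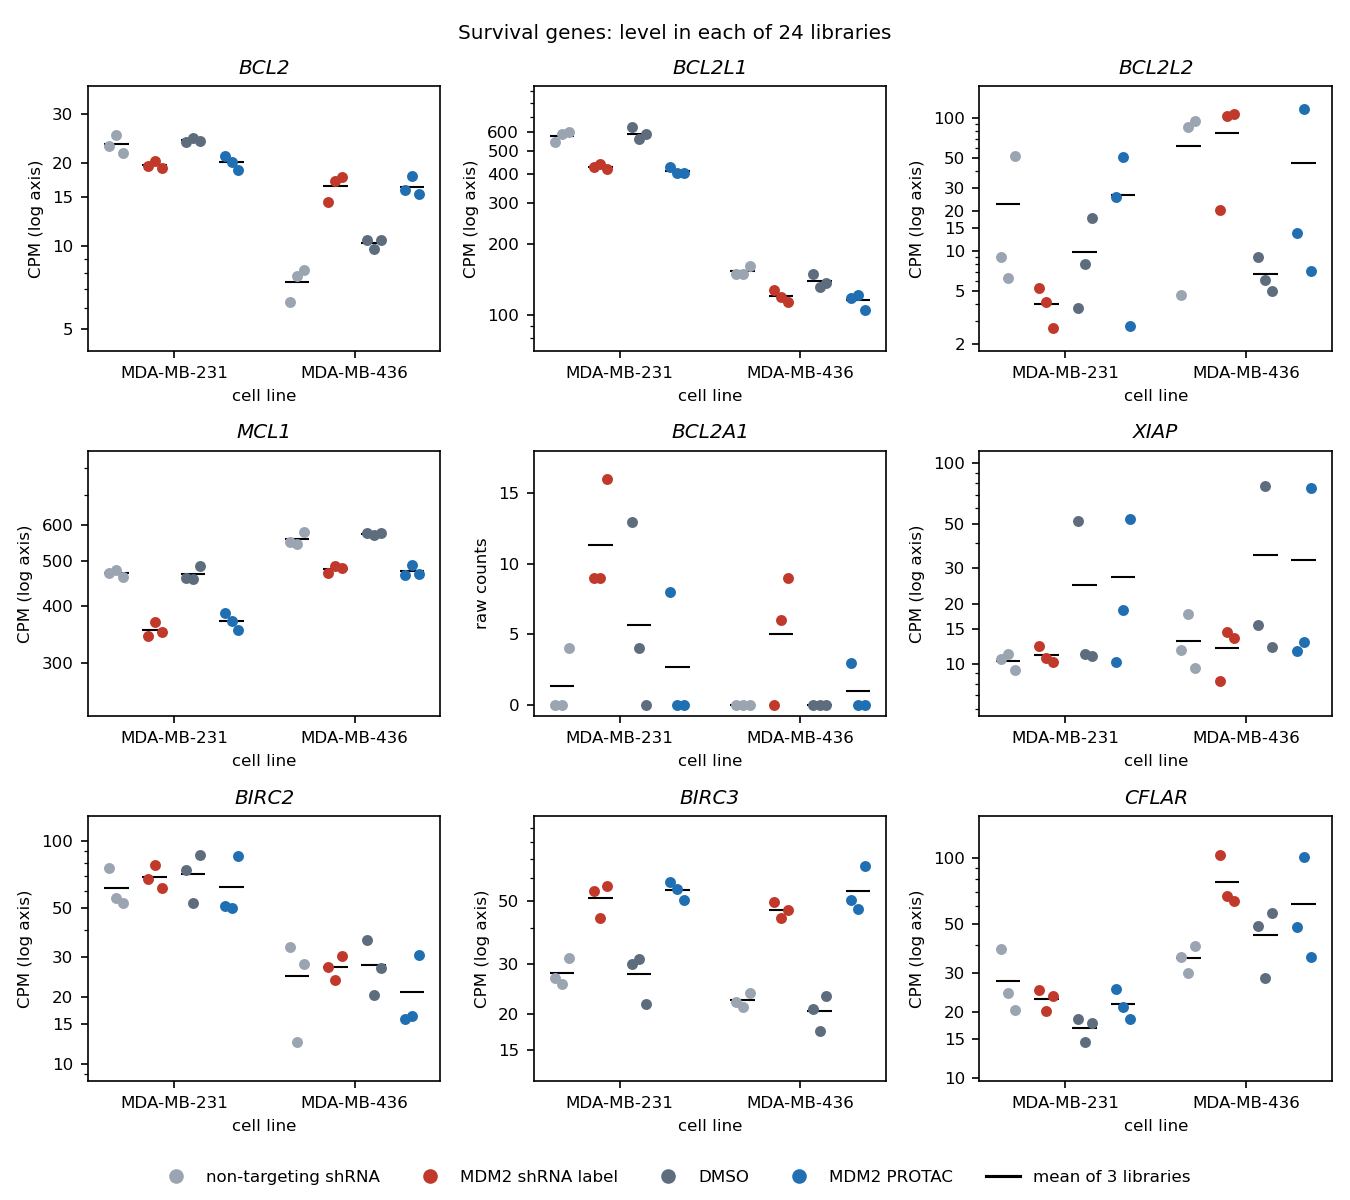
Level of each of the 9 survival genes in the 24 libraries. The y axis is CPM on a log axis (raw counts on a linear axis for BCL2A1), the x axis the cell line, each point 1 library coloured by group, and each bar the mean of 3 libraries. BIRC3 is higher in every treated library than in every control library, and the libraries of BCL2L2 and XIAP lie far apart within groups.

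BIRC3 is shown first, together with BCL2L1, since the one rose and the other fell throughout. The RefSeq sequence before their starts (GRCh38.p14) is printed 5′ to 3′ on the gene's strand, from 250 bases before the start up to the first annotated exon base, with matches to the NF-kB consensus in capitals. BIRC3 lies at chr11:102317450-102339403 (GRCh38, GENCODE 29), plus strand, and its printed stretch at chr11:102317234-102317449. BCL2L1 lies at chr20:31664452-31723989, minus strand, and its stretch at chr20:31723990-31724213.
BIRC3: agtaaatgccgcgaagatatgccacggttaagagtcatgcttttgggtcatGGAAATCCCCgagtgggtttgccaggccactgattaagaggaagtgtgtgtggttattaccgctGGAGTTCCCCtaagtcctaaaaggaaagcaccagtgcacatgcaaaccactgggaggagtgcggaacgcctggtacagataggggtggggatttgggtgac
BCL2L1: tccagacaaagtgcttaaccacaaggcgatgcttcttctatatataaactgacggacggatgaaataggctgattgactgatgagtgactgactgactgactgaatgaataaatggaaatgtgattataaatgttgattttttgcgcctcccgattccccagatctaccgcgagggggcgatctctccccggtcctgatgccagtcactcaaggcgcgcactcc
The search covered the 250 bases before each RefSeq start on both strands, for the 10-letter NF-kB consensus, the AP-1 motif TGANTCA and the CRE motif TGACGTCA. Of the members, 7 had such windows, 14 in all, and MCL1 and BCL2L2 are named only. BIRC3 held 2 NF-kB matches, GGAAATCCCC at 199 bases and GGAGTTCCCC at 135 bases before its start. CFLAR held GGGGAATTCC at 97 bases before its first start, and GGAAGTTTCC at 28 and the AP-1 match TGAATCA at 160 bases before the third. BIRC2 held a CRE match at 167 bases before its second start, and the windows of BCL2, BCL2L1, BCL2A1 and XIAP held none of the motifs. Over 35116 windows of the same length, 12.3% held the NF-kB consensus, 6.57% the AP-1 motif and 1.65% the CRE motif, so a match to the first is common.

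Among the survival BCL-2 members, BCL2L1 and MCL1 dominated the transcript pool. BCL2L1 encodes BCL-XL, and MCL1 a short-lived protein that restrains BAK1. Per kilobase of exon, these 2 genes held 91.3% of the summed control level of all 9 genes for MDA-MB-231, and for MDA-MB-436 the share was 88.8%. BCL2L1 stood first in MDA-MB-231, at 177 CPM per kilobase against 107 for MCL1. The order was inverted in MDA-MB-436, at 44.2 for BCL2L1 against 130 for MCL1 (both in CPM per kilobase; values across genes assume the whole exon union is transcribed).

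BCL2L1 fell with both treatments in both lines. In bulk RNA, fewer cells with a transcript and less transcript per cell cannot be told apart. In MDA-MB-231 it measured 549, 589 and 599 CPM with the non-targeting shRNA and 428, 439 and 419.7 CPM with the MDM2 hairpin label. With DMSO it measured 629.9, 561 and 588 CPM, and with the PROTAC 426, 402 and 403 CPM. Every treated library was below every control library. The log2 changes were -0.43 ± 0.049 (adjusted p = 8.93e-05) and -0.53 ± 0.049 (adjusted p = 2.02e-05), folds of 0.741 and 0.691. In MDA-MB-436, where the gene stood at about 4-fold lower levels, it measured 149.7, 149.6 and 162 CPM against 128, 119 and 114 CPM with the hairpins. DMSO gave 149.7, 132 and 137 CPM and the PROTAC 119, 122 and 106 CPM. The groups again did not overlap, and the log2 changes were smaller, -0.33 ± 0.066 (adjusted p = 0.00237) and -0.28 ± 0.066 (adjusted p = 0.00691). The second of these was lost under 3 of 14 alternatives. They were no scaling, the fit of the 6 libraries alone, and leaving out DMSO replicate 1 (adjusted p = 0.0528). BCL2L1 shares 1424 exon bases, 43.0% of its exons, with the antisense RNA ABALON (8.30 to 63.2 CPM), and the strand of counting is not given in the sources used here. With the counts of both joined, an alternative added after seeing the data, the 4 changes ran from -0.48 to -0.30 and all passed.

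MCL1 moved alongside it. The gene lies at chr1:150574551-150579738, minus strand. In MDA-MB-231 it measured 471, 479 and 463 CPM with the non-targeting shRNA and 344, 369 and 351 CPM with the MDM2 hairpin label. DMSO gave 459, 458 and 488 CPM and the PROTAC 386, 369.6 and 355 CPM. In MDA-MB-436 the hairpin groups measured 552, 545 and 581 CPM and 471, 488 and 483 CPM. All treated libraries lay below all control libraries of their comparison. DMSO and PROTAC libraries of MDA-MB-436 measured 576, 572 and 577 CPM and 467, 492 and 470.4 CPM. The log2 changes were -0.41 ± 0.043 and -0.34 ± 0.043 in MDA-MB-231 (adjusted p = 4.84e-05 and 0.000179) and -0.20 ± 0.046 and -0.28 ± 0.046 in MDA-MB-436 (adjusted p = 0.00568 and 0.000700). MCL1 had the narrowest spread of the members, with at most 1.09-fold between the libraries of a group.

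The falls of BCL2L1 and MCL1 in MDA-MB-436 depended on the scaling between libraries. Without scaling beyond library totals, the median of all genes moved from 0.04 to 0.22 on the log2 scale with the hairpin and from 0.04 to 0.21 with the PROTAC, and the share of called genes that were higher went from 52.5 to 72.8% and from 53.4 to 70.9%. BCL2L1 then changed by -0.16 (adjusted p = 0.0902) and -0.11 (adjusted p = 0.210), and MCL1 by -0.02 (adjusted p = 0.758) and -0.11 (adjusted p = 0.0833). In MDA-MB-231 the falls of both genes held under each of the 14 alternatives run, although the median of all genes moved there too, from 0.01 to 0.11 with the hairpin and from -0.01 to 0.08 with the PROTAC, with 68.0 and 65.6% of calls higher in place of 48.8 and 49.1%.

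BCL2, the founding member of the family, went in opposite directions in the lines. It lies at chr18:63123346-63320128, minus strand. In MDA-MB-436 it measured 6.27, 7.79 and 8.20 CPM with the non-targeting shRNA and 14.5, 17.2 and 17.8 CPM with the MDM2 hairpin label. DMSO gave 10.5, 9.73 and 10.6 CPM and the PROTAC 16.0, 17.9 and 15.4 CPM. Each treated library exceeded each of its controls. The log2 changes were 1.17 ± 0.12 (fold 2.25, adjusted p = 3.22e-05) and 0.67 ± 0.12 (fold 1.59, adjusted p = 0.00141), and both passed under each of the 14 alternatives. The 2 control groups differed, with all DMSO libraries above all non-targeting libraries, while the treated groups overlapped. In MDA-MB-231, BCL2 measured 23.0, 25.3 and 21.8 CPM and 19.6, 20.4 and 19.2 CPM with the hairpins. DMSO gave 23.9, 24.6 and 23.9 CPM and the PROTAC 21.2, 20.1 and 18.9 CPM. These groups did not overlap either, but the falls were small, -0.24 ± 0.073 (adjusted p = 0.0343) and -0.27 ± 0.073 (adjusted p = 0.0227). They no longer passed without scaling (adjusted p = 0.198 and 0.102), without the filter (0.0699 and 0.0521), the first in the fit of its 6 libraries alone (0.0742), or when any library but non-targeting replicate 3, or any but PROTAC replicate 1, was left out (adjusted p from 0.0228 to 0.110 and from 0.0295 to 0.0888 over the 6 libraries). The treatment effect on BCL2 differed between the lines by 1.40 ± 0.15 with the hairpin (adjusted p = 1.04e-06) and by 0.94 ± 0.15 with the PROTAC (adjusted p = 8.25e-05), in the fit of all 24 libraries.

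BCL2L2, which encodes BCL-W, varied several-fold between libraries of the same group. In MDA-MB-231 it measured 9.02, 6.34 and 52.6 CPM, 5.34, 4.16 and 2.67 CPM, 3.73, 8.08 and 17.7 CPM and 25.5, 51.5 and 2.74 CPM in the non-targeting, MDM2 hairpin, DMSO and PROTAC groups. In MDA-MB-436 the same groups measured 4.70, 86.2 and 95.4 CPM, 20.3, 104 and 108 CPM, 9.10, 6.07 and 5.06 CPM and 13.8, 117 and 7.16 CPM. Divided at 20 CPM, a value chosen after they were seen, 9 libraries lay at 20.3 to 117 CPM and 15 at 2.67 to 17.7 CPM, and libraries of both kinds occurred in 4 of the 8 groups. The highest library exceeded the lowest of its group by up to 20.3-fold, or 19.9-fold with a small constant added to both values. By the second measure, 0.344% of 11933 genes of at least 5 CPM had as wide a gap. The log2 changes of -2.48 ± 1.04, 1.43 ± 0.99, 0.35 ± 1.07 and 2.74 ± 1.15 (hairpin and PROTAC in MDA-MB-231, then both in MDA-MB-436) did not pass (adjusted p = 0.118, 0.360, 0.853 and 0.0941). Without non-targeting replicate 3, the library at 52.6 CPM, the first of these was -0.94. Without PROTAC replicate 2 of MDA-MB-436, at 117 CPM, the last was 0.64. The gene (chr14:23298790-23311759, plus strand) shares 813 exon bases with the read-through gene BCL2L2-PABPN1, which measured 0.879 to 15.7 CPM, and 206 with PPP1R3E on the other strand (4.23 to 22.2 CPM). With the counts of these genes joined to its own, an alternative added after seeing the data, the 4 changes were -1.05, 0.98, 0.32 and 1.38 in the same order and did not pass (adjusted p from 0.119 to 0.753).

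BCL2A1, an NF-kB target most familiar from blood cells, was nearly silent. It had 0 counts in 14 of 24 libraries, at most 16 in any, and 81 in all. In MDA-MB-231 the groups held 4 counts with the non-targeting shRNA, 34 with the MDM2 hairpin label (9, 9 and 16), 17 with DMSO and 8 with the PROTAC. In MDA-MB-436 they held 0, 15, 0 and 3 counts in the same order. The filter on low counts removed the gene in both lines, so its changes were not tested. Over the 6 control libraries of a line, 21 counts in MDA-MB-231 stood against 0 in MDA-MB-436. The 21 were 0, 0 and 4 with the non-targeting shRNA and 13, 4 and 0 with DMSO, so most came from 1 library. Pooled, the level was at least 7.31-fold lower in MDA-MB-436 against a floor of 3 counts over the group. That bound covers counting error only, not the spread between libraries.

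**Figure D2:**
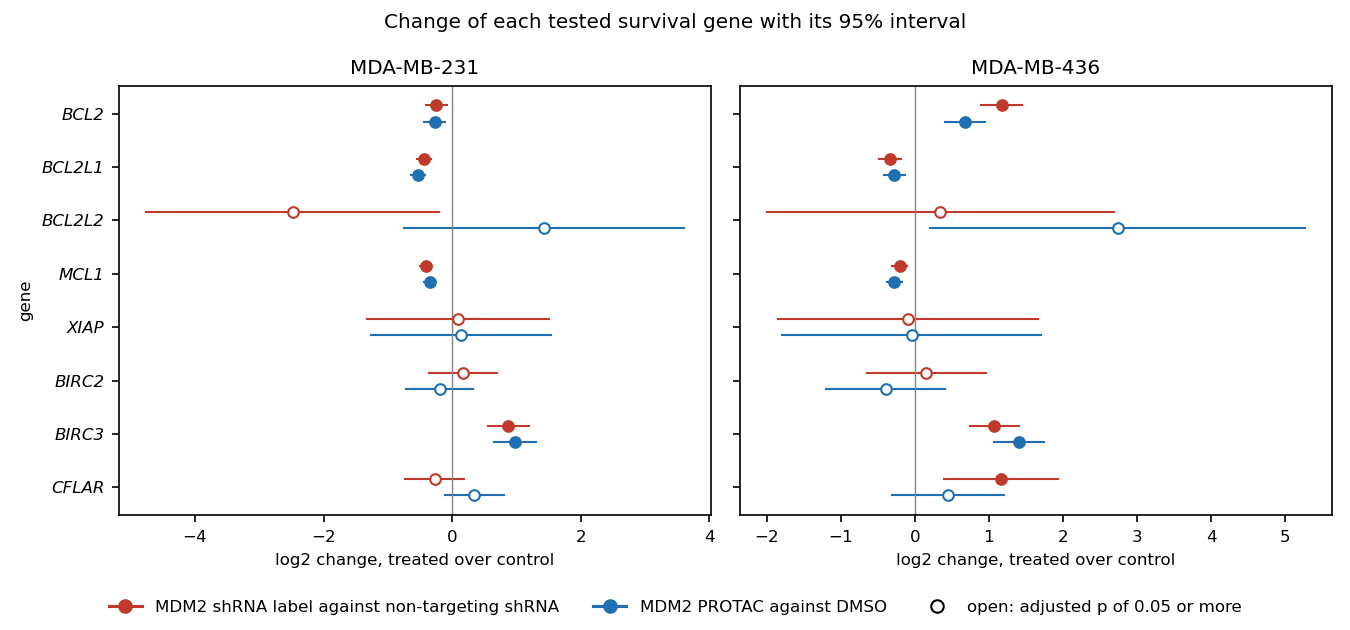
Log2 change of the 8 tested members, treated over control, in MDA-MB-231 (left) and MDA-MB-436 (right). Points are estimates of edgeR's quasi-likelihood fit with lines for the 95% interval, red for the MDM2 shRNA label and blue for the PROTAC, filled where the adjusted p was under 0.05. BIRC3 lies right of 0 and BCL2L1 and MCL1 left of 0 in all 4 comparisons, and the intervals of BCL2L2 and XIAP span several log2 units.

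Of the inhibitors of apoptosis, BIRC3 rose in each comparison. In MDA-MB-231 it measured 26.7, 25.6 and 31.6 CPM with the non-targeting shRNA and 54.1, 43.3 and 56.2 CPM with the MDM2 hairpin label. DMSO gave 29.9, 31.2 and 21.8 CPM and the PROTAC 58.2, 55.0 and 50.4 CPM. All 6 treated libraries stood above all 6 controls. The log2 changes were 0.87 ± 0.15 (fold 1.83, 95% interval 1.47 to 2.29, adjusted p = 0.00134) and 0.98 ± 0.15 (fold 1.97, 1.58 to 2.46, adjusted p = 0.000651). In MDA-MB-436 it measured 22.1, 21.2 and 23.7 CPM and 49.6, 43.5 and 46.2 CPM with the hairpins. DMSO gave 20.9, 17.4 and 23.1 CPM and the PROTAC 50.1, 46.6 and 66.0 CPM. The groups were as clearly apart, with log2 changes of 1.07 ± 0.15 (fold 2.10, 1.67 to 2.64, adjusted p = 0.000233) and 1.41 ± 0.15 (fold 2.65, 2.11 to 3.34, adjusted p = 3.28e-05). Each of the 4 rises passed under each of the 14 alternatives. The highest value, 66.0 CPM, belonged to PROTAC replicate 3 of MDA-MB-436, the library that agreed least with its group, and without it the change was 1.20. The difference of the rises between the lines, MDA-MB-436 minus MDA-MB-231, was 0.18 ± 0.21 with the hairpin (adjusted p = 0.649) and 0.42 ± 0.21 with the PROTAC (adjusted p = 0.164), and neither passed. The second ran from 0.26 to 0.57 with a library left out, and passed without DMSO replicate 3 of MDA-MB-231 (0.57, adjusted p = 0.0498). In order of level, all 4 control groups came before all 4 treated groups, and neighbouring groups overlapped on either side of that single gap.

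BIRC2, which begins 7807 bases after the end of BIRC3 on chromosome 11 (chr11:102347211-102378670, plus strand), passed the test in no comparison. It measured 76.0, 55.7 and 52.5 CPM, 67.6, 78.1 and 61.6 CPM, 74.2, 52.7 and 86.5 CPM and 50.9, 50.1 and 85.8 CPM in the non-targeting, MDM2 hairpin, DMSO and PROTAC groups of MDA-MB-231. In MDA-MB-436 these were 33.3, 12.5 and 28.2 CPM, 27.2, 23.8 and 30.4 CPM, 36.0, 20.4 and 26.9 CPM and 15.8, 16.4 and 30.9 CPM. Treated and control libraries overlapped in all 4 comparisons. The log2 changes of 0.17 ± 0.24, -0.20 ± 0.24, 0.16 ± 0.36 and -0.39 ± 0.37 did not pass, and their 95% intervals reached from -0.72 to 0.69 in MDA-MB-231 and from -1.19 to 0.95 in MDA-MB-436.

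XIAP sat at one low level in most libraries and several-fold higher in a few. Its levels in MDA-MB-231 were 10.6, 11.2 and 9.36 CPM, 12.3, 10.8 and 10.2 CPM, 51.7, 11.2 and 11.0 CPM and 10.3, 18.6 and 52.9 CPM in the same order of groups. In MDA-MB-436 they were 11.7, 17.8 and 9.52 CPM, 8.26, 14.5 and 13.6 CPM, 15.6, 76.9 and 12.2 CPM and 11.6, 12.9 and 75.1 CPM. Divided at 40 CPM, again chosen after the values were seen, 4 libraries measured 51.7 to 76.9 CPM and 20 measured 8.26 to 18.6 CPM. The 4 were 1 DMSO and 1 PROTAC library of each line, and no library with either hairpin lay above 17.8 CPM. The 4 log2 changes lay between -0.09 and 0.14 with SE of 0.64 to 0.80 and did not pass (adjusted p from 0.913 to 0.976). Leaving out the high DMSO library turned the PROTAC value to 1.29 for MDA-MB-231 and to 1.30 for the other line, and leaving out the high PROTAC library turned it to -0.77 and -1.55. XIAP (chrX:123859724-123913979, plus strand) shares no exon base with another annotated gene, and the part of library quality or read assignment in its spread was not tested.

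**Figure D3:**
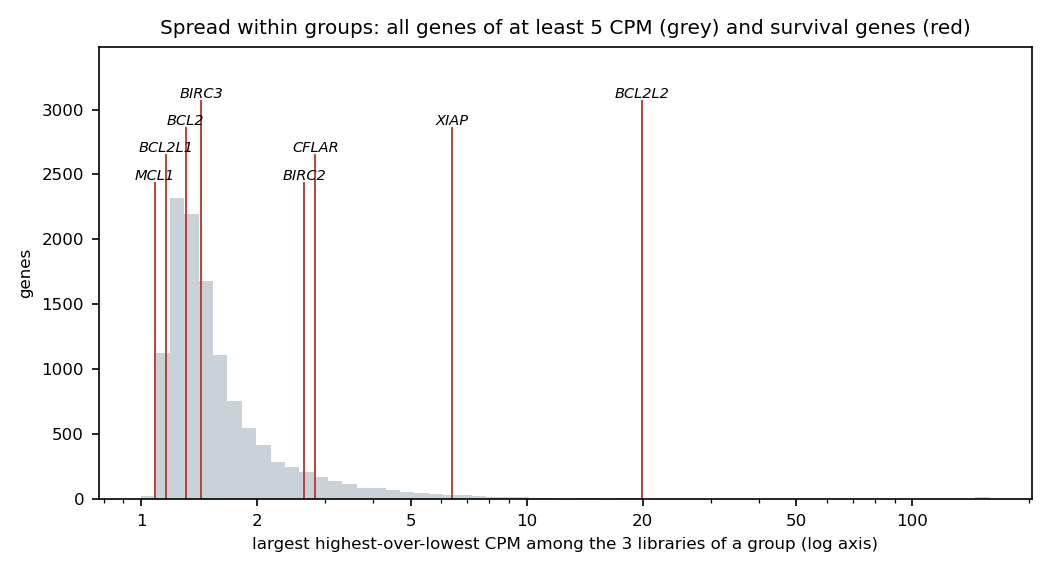
Spread within groups. The x axis (log axis) is the largest ratio of the highest to the lowest CPM among the 3 libraries of a group, over the 8 groups. A small constant was added to both values of each ratio. The y axis is the number of genes, for 11933 genes of at least 5 CPM in grey with the tested members as red lines. MCL1 and BCL2L1 sit at the narrow end, at 1.09 and 1.16, and XIAP and BCL2L2 far to the right, at 6.41 and 19.9.

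CFLAR rose in 1 comparison, with a wide error. The gene lies at chr2:201116104-201176687, plus strand. In MDA-MB-436 it measured 35.5, 30.1 and 39.6 CPM with the non-targeting shRNA and 103, 67.0 and 63.4 CPM with the MDM2 hairpin label. All 3 hairpin libraries were above the 3 controls (log2 change 1.17 ± 0.35, fold 2.24, adjusted p = 0.0248). The call was lost when any non-targeting library or MDM2 shRNA replicate 1 was left out (adjusted p from 0.0509 to 0.106, log2 change from 0.91 to 1.25). DMSO gave 49.1, 28.3 and 55.9 CPM and the PROTAC 48.2, 101 and 35.4 CPM, which overlapped (0.45 ± 0.34, adjusted p = 0.366). Without PROTAC replicate 2, at 101 CPM, this value was -0.09. In MDA-MB-231 the gene measured 38.3, 24.2 and 20.4 CPM and 25.0, 20.1 and 23.6 CPM with the hairpins (-0.27 ± 0.21, adjusted p = 0.427). DMSO and PROTAC gave 18.4, 14.5 and 17.8 CPM and 25.2, 20.9 and 18.6 CPM, groups that did not overlap although the change of 0.35 ± 0.21 did not pass (adjusted p = 0.287). Without non-targeting replicate 1, the highest of its group, the hairpin value in MDA-MB-231 was 0.03.

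Both treatments were then compared with each other within each line. The PROTAC effect minus the hairpin effect passed for 0 of 8 members in either line by edgeR and by DESeq2, and at an unadjusted p under 0.05 for 1 in each line, where 977 of 20675 genes and 1230 of 22663 genes did. Over all genes 0.00484% passed for MDA-MB-231, and 0.00441% did for the other line. For BIRC3 the difference was 0.10 ± 0.20 for MDA-MB-231 and 0.34 ± 0.21 for the other line, for BCL2L1 -0.10 ± 0.069 and 0.06 ± 0.093, and for MCL1 0.07 ± 0.060 and -0.07 ± 0.065. BCL2 differed by -0.02 ± 0.10 in MDA-MB-231 and by -0.50 ± 0.17 in MDA-MB-436 (adjusted p = 0.905), with a fold of 0.707 and a 95% interval of 0.543 to 0.922. For CFLAR the intervals allowed folds of 0.974 to 2.42 in MDA-MB-231 and 0.290 to 1.28 in MDA-MB-436, so the data do not show that the treatments acted alike on it.

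Effects that differed between the lines were sought in the fit of all 24 libraries. With the hairpin, 3 of 9 members had a higher effect in MDA-MB-436 (of 24719 genes, 9.94% had a higher and 9.77% a lower effect there, 19.7% in all). Besides BCL2 they were CFLAR, by 1.42 ± 0.45 (adjusted p = 0.0292), and MCL1, by 0.19 ± 0.062 (adjusted p = 0.0328), whose fall was smaller there. With the PROTAC, BCL2 and BCL2L1 differed (11.8% of genes higher, 10.5% lower, 22.3% in all), BCL2L1 by 0.26 ± 0.092 (adjusted p = 0.0488). The last 3 values lay close to the threshold and passed under 12, 10 and 7 of 19 alternatives.

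Control levels differed between the lines as well. Over the 6 control libraries of each line, BCL2L1 was 0.250-fold in MDA-MB-436 what it was in MDA-MB-231 (log2 difference -2.00 ± 0.048, adjusted p = 3.17e-18). BCL2 was lower as well (-1.44 ± 0.075), as were BIRC2 (-1.34 ± 0.23) and BIRC3 (-0.38 ± 0.10), and BCL2A1 was called lower on the few counts given above. MCL1 (0.27 ± 0.031) and CFLAR (0.87 ± 0.22) were higher. The differences of BCL2L2 (0.45 ± 0.78) and XIAP (0.41 ± 0.54) did not pass. In this comparison 35.9% of all genes were higher and 30.9% lower, 66.8% in all, so 7 of 9 members, BCL2A1 among them, is near the share of the rest.

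Genes that act with the members were described by lists, and a pair of changes given for a gene of these is for the hairpin and then the PROTAC. Among 12 partners of the inhibitors and other members of that family, 3 rose and 2 fell of 11 tested with the hairpin in MDA-MB-231 and 4 rose and 2 fell in each other comparison, of 11 tested with the PROTAC in that line and 10 in MDA-MB-436. Of all genes, 11.1% rose and 11.6% fell with the hairpin in MDA-MB-231, and 11.1% and 11.5% with the PROTAC. In MDA-MB-436 these shares were 16% and 14.4%, and 17.3% and 15.1%. The falls with the hairpin in MDA-MB-231 numbered 1 in place of 2 under 10 of 14 alternatives, among them leaving out any of the 6 libraries. The falls with the PROTAC in MDA-MB-436 numbered 1 under 7, and with the PROTAC in the other line 2 to 4 rose, a count that moved by over 1.5 times under 6. TRAF1, an adaptor that joins BIRC2 and BIRC3 to receptors, rose by 1.18 ± 0.088 and 0.93 ± 0.087 in MDA-MB-231 and by 2.59 ± 0.083 and 2.65 ± 0.083 in MDA-MB-436. BIRC5 (survivin), which serves cell division, fell by 0.60 and 0.58 in MDA-MB-231, where RIPK1, a kinase ubiquitinated by BIRC2 and BIRC3, rose by 0.21 and 0.26. In MDA-MB-436, HTRA2, a mitochondrial protease that antagonises XIAP, rose by 0.99 and 1.10, and TRAF2, the partner of TRAF1, by 0.83 and 0.94. The medians of this list lay between -0.01 and 0.16, against -0.01 to 0.04 for all genes.

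NF-kB subunits and targets, a list of 15 that were all tested, gave 6 rises with each treatment in MDA-MB-231, where 11.1% of all genes rose with either. In MDA-MB-436 there were 9 with each, against 16% and 17.3% of all genes. The single fall, with the PROTAC in MDA-MB-436, was lost under 6 of 14 alternatives, among them leaving out any of 5 of the 6 libraries. Their medians were 0.42, 0.23, 0.77 and 0.82 in the order hairpin and PROTAC in MDA-MB-231, then both in MDA-MB-436. NFKB2, a subunit of the non-canonical pathway that BIRC2 and BIRC3 restrain, rose by 0.89 ± 0.050 and 0.83 ± 0.050 in MDA-MB-231. ICAM1, an adhesion molecule, rose there by 1.09 and 1.12, CXCL8 (interleukin 8) by 1.39 and 1.07, and NFKBIE, an inhibitor of NF-kB, by 0.91 and 0.92. In MDA-MB-436, CXCL8 rose by 2.75 ± 0.082 and 2.999 ± 0.083, the feedback inhibitor TNFAIP3 by 2.54 and 2.47, and the chemokine CCL20 by 1.99 and 1.82.

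The 11 pro-apoptotic BCL-2 genes, the counterparts of the survival members, gave 3 rises and 1 fall of 10 tested with each treatment in MDA-MB-231. Of all genes, 11.1% rose there with either treatment, and 11.6% and 11.5% fell. Among those of MDA-MB-436, 4 rose and 1 fell of 11 with the hairpin, against 16% and 14.4% of all genes. With the PROTAC, 4 rose and 0 fell, against 17.3% and 15.1%. The 1 fall with the hairpin was lost under 8 of 14 alternatives, again with any of 5 of the 6 libraries left out. Their medians were 0.11, 0.34, 0.81 and 0.21 in the order used above. BIK rose by 1.63 ± 0.27 and 1.08 ± 0.27 in MDA-MB-231, BID, which links death receptors to mitochondria, by 0.35 and 0.39 with both treatments, and BAK1 by 0.27 with the PROTAC (0.11 with the hairpin, not past the test), while BOK fell by 0.17 and 0.23. The fall of BOK with the hairpin was lost under 9 of 14 alternatives, among them leaving out any of 5 of the 6 libraries. In MDA-MB-436, HRK rose by 1.69 and 1.52, BMF by 0.92 and 0.77, BBC3 (PUMA) by 1.37 and 1.15, and BIK by 1.15 and 1.17.

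Death receptor and caspase-8 complex genes, the setting in which FLIP acts, gave 2 rises and 1 fall of 10 with the hairpin and 4 and 2 with the PROTAC in MDA-MB-231, and 2 and 2 of 9 and 2 and 1 of 9 in MDA-MB-436. The shares of all genes that rose and fell were 11.1% and 11.6%, then 11.1% and 11.5%, in MDA-MB-231. For MDA-MB-436 they were 16% and 14.4%, then 17.3% and 15.1%. Over the 14 alternatives, the falls in MDA-MB-231 numbered 1 to 3 with the hairpin and 1 to 2 with the PROTAC. The rises in MDA-MB-436 numbered 2 to 4 with the hairpin and 1 to 4 with the PROTAC. Medians of the list were 0.09, 0.08, 0.16 and -0.03. TNFSF10, the ligand TRAIL, rose by 1.41 ± 0.20 and 1.60 ± 0.20 and CASP8 by 0.54 and 0.56 in MDA-MB-231, where FADD fell by 0.36 and 0.25. CASP10 rose there by 1.70 with the PROTAC (0.76 with the hairpin, not past the test). In MDA-MB-436 the TRAIL receptor TNFRSF10B rose by 0.48 and 0.43, TNFRSF1A fell by 0.79 and 0.62, the decoy receptor TNFRSF10D rose by 2.22 with the hairpin, and FAS rose by 1.43 with the PROTAC. With the other treatment each measured 1.11 and did not pass.

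Of 8 genes that control the turnover of MCL1 protein, 5 fell with each treatment in MDA-MB-436, and 1 rose with the hairpin and 0 with the PROTAC (medians -0.41 and -0.57). Of all genes, 14.4% fell and 16% rose there with the hairpin, and 15.1% fell and 17.3% rose with the PROTAC. BTRC, a ubiquitin ligase subunit, fell by 0.37 ± 0.092 and 0.65 ± 0.092, and FBXW7, another, by 0.43 and 0.75. CUL5, a cullin scaffold, fell by 0.48 and 0.50, and USP9X, a deubiquitinase that stabilises MCL1, by 0.41 and 0.65. Without scaling beyond library totals, 0 of the 8 fell with the hairpin. The 1 rise with the hairpin was lost under 4 of 14 alternatives. In MDA-MB-231, USP13, another deubiquitinase of MCL1, fell by 0.28 and 0.27, and MARCHF5, a mitochondrial ubiquitin ligase, rose by 0.23 with the hairpin and measured 0.16 with the PROTAC, which did not pass (medians -0.06 and -0.04).

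**Figure D4:**
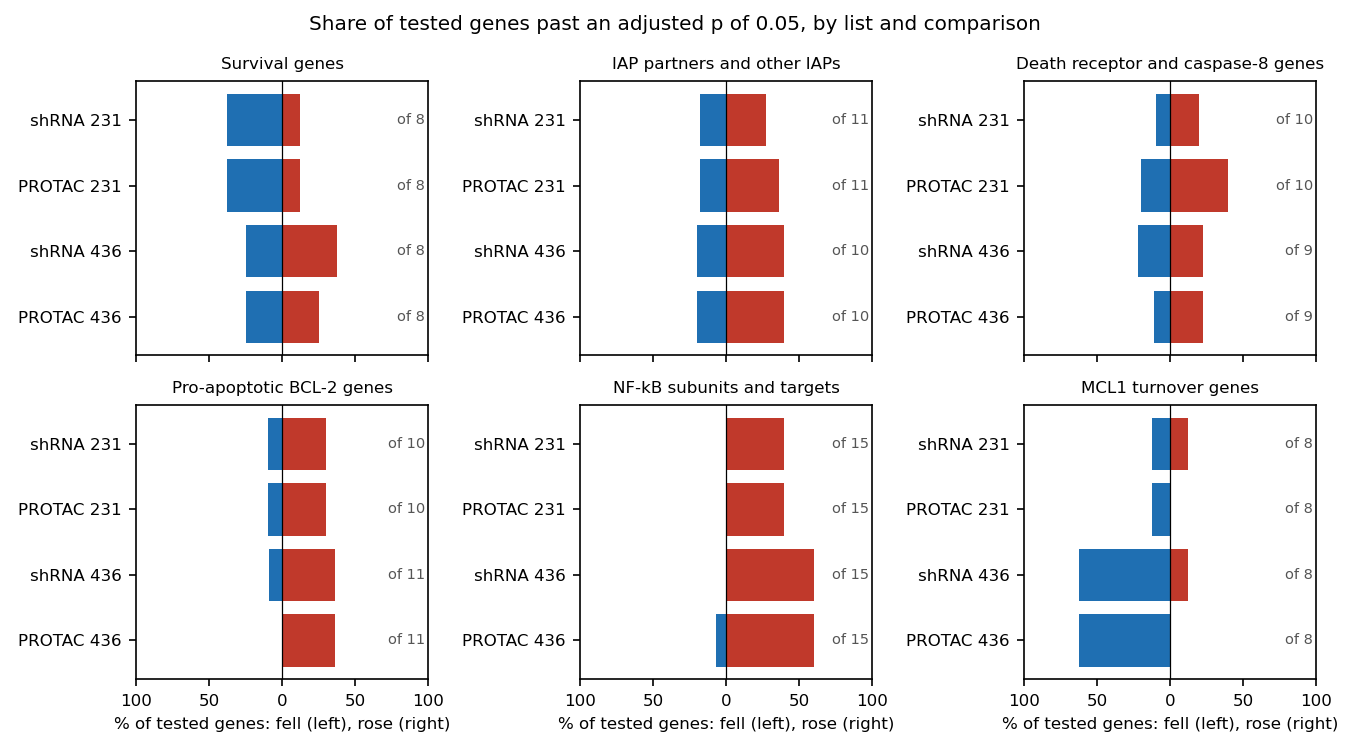
Share of tested genes called in each comparison, for the survival genes and the 5 lists. Bars to the right are the percent that rose and bars to the left the percent that fell at an adjusted p under 0.05, with the number tested at the right. NF-kB genes lie to the right in all 4 comparisons, with 1 fall that was lost under 6 of 14 alternatives, and MCL1 turnover genes to the left in MDA-MB-436.

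Across the 24 libraries, after each line's mean was subtracted, BCL2L1 and MCL1 varied together (Pearson r of log2 CPM 0.91), and BIRC3 varied inversely to them (-0.85 and -0.90). BCL2 was less closely tied to BIRC3 (0.50). These values are descriptions, since the libraries share their treatments, which also set them apart. Among 11651 protein-coding genes, those nearest to BIRC3 were HECA, HAT1 and DTX3 (r of 0.97, 0.96 and 0.96), to BCL2L1 COL6A1, PLAU and HMGA1 (each 0.96), and to MCL1 DCBLD2, VWA8 and PHLDA1 (0.98, 0.97 and 0.97). For BCL2 they were PDE10A, NGFR and CEBPG (each 0.93), and for CFLAR RAPH1, FOSL2 and ESYT1 (0.84, 0.81 and 0.80).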

How the data were processed

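Total RNA of 24 libraries was sequenced on an Illumina HiSeq from NEBNext Ultra II libraries, per the labels' protocols. The submitters' processing notes list cutadapt 2.4, HISAT2, StringTie, edgeR and the GRCh38 build, with no role for each. The deposited values are whole-number counts per Ensembl gene that the authors made from the reads, per the labels and the files themselves, and the counting tool and its strand setting are not given in the sources used here. Counts of 4 were 1.20 to 1.64 times as frequent as their neighbours.

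The members and gene lists were chosen with earlier results of these data known. GENCODE 29 gave the genes' positions and exon lengths. With edgeR 4.0.16 in R 4.3.3, genes were kept by filterByExpr, libraries scaled by TMM, and the 12 libraries of a line fitted with a mean per group (8 members passed the filter, and BCL2A1 did not). Differences between lines used 1 fit of all 24 libraries. The Benjamini-Hochberg adjustment ran over all genes tested, with a threshold of 0.05, and all adjusted p-values are edgeR's unless DESeq2 is named. The fit was tested on simulated data. No 2 libraries held identical counts.

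The alternatives were RLE size factors, no scaling, no filter, a block for the replicate number, DESeq2 1.42.0, counts divided by 4, the 6 libraries of a comparison alone, and each library left out in turn. Joining the counts of genes that share exons was added after seeing the data. Among the members it changed the counts of BCL2L1, BCL2L2 and CFLAR only, so it could not test the others. All 9 members and MDM2 are named. For each list, the genes named are those among the 3 smallest adjusted p of a comparison that passed. For likeness, they are the 3 highest Pearson correlations per called member among protein-coding genes of at least 1 CPM in both lines.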

Additional observations from a re-analysis of the deposited data

Results flagged for a closer look

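Effects that differed between MDA-MB-436 and MDA-MB-231, by a test of the difference itself, were found for 4 members. The hairpin effect on BCL2 was higher in MDA-MB-436 by 1.40 on the log2 scale (adjusted p = 1.04e-06), that on CFLAR by 1.42 (adjusted p = 0.0292) and that on MCL1 by 0.19 (adjusted p = 0.0328). The PROTAC effect was higher there by 0.94 for BCL2 (adjusted p = 8.25e-05) and by 0.26 for BCL2L1 (adjusted p = 0.0488). For BCL2 each treated library lay above its controls in MDA-MB-436 and below them in MDA-MB-231. No group had enough libraries for a test of single outlying libraries.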

How the results depend on the processing

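The 4 rises of BIRC3, both rises of BCL2 in MDA-MB-436 and the falls of BCL2L1 and MCL1 in MDA-MB-231 passed under each of the 14 alternatives run. Joining counts, one of these, left those of BIRC3, BCL2 and MCL1 unchanged, so for them it was no test. Without scaling beyond library totals, 0 members fell in MDA-MB-436 with either treatment in place of 2. XIAP then changed there by 0.085 with the hairpin and 0.14 with the PROTAC, and MDM2 by 0.072 with the hairpin. In the fit of the 6 libraries alone, 1 member fell with the PROTAC in MDA-MB-436, and 1 to 2 did with a library left out (1 without DMSO replicate 1). The fall lost in these fits was that of BCL2L1. Members with a higher effect in MDA-MB-436 numbered 1 to 3 with the hairpin and 1 to 2 with the PROTAC as libraries were left out. With the PROTAC the number was 1 without the filter and 1 with joined counts.

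No shared deviation by replicate number was seen: deviations from group means correlated between -0.025 and 0.033 for libraries of one number. Whether libraries of one number were grown together is not stated in the sources used here. With the replicate number as a block, 1 member had a higher effect in MDA-MB-436 with the hairpin and 1 with the PROTAC, and 1 member had a higher control level there. The line differences that no longer passed under the block were CFLAR and MCL1 with the hairpin (edgeR adjusted p = 0.0614 for MCL1), BCL2L1 with the PROTAC (0.0686) and the control level of CFLAR (0.0750). The block moved the PROTAC change of XIAP in MDA-MB-436 to 0.022, and no member's call in the 4 treatment comparisons was lost under it.

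Some values that did not pass changed sign as libraries were left out. With the hairpin in MDA-MB-436 the ranges were -0.21 to 0.79 for BCL2L2, -0.28 to 0.21 for XIAP, -0.16 to 0.44 for BIRC2 and -0.27 to 0.13 for MDM2, and in MDA-MB-231 -0.46 to 0.027 for CFLAR. With the PROTAC they were -0.77 to 1.29 for XIAP in MDA-MB-231, and -1.55 to 1.30 for XIAP and -0.085 to 0.70 for CFLAR in MDA-MB-436. The PROTAC minus hairpin difference in MDA-MB-231 ran from -0.074 to 0.034 for BCL2 and from -0.033 to 0.20 for BIRC3, and the line difference of the PROTAC effect on CFLAR from -0.44 to 0.40. Over all genes, 1 gene differed between treatments in each line by edgeR, 38 and 35 by DESeq2, and 0 to 6 and 1 to 25 with a library left out (25 without PROTAC replicate 2). The cause was not tested. At these depths BCL2A1, with 81 counts in all and 0 in 14 libraries, did not reach the filter in the fit of either line. The fit of all 24 libraries kept it.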
